A study of Mus musculus with 4 samples.

Results

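The Dlk1-Meg3 domain is a cluster of imprinted genes on mouse chromosome 12. The genes followed here were Dlk1, Rtl1 and Dio3, the protein-coding genes read from the paternal copy, Meg3, Rian and Mirg, the long noncoding RNAs read from the maternal copy, and the flanking genes Begain, Wdr25 and Ppp2r5c. Every probe set whose single gene symbol in the array annotation is one of these 9 genes was taken, which gave 27 of 45037 probe sets. They fall on 6 of the 9 genes: 11 on Meg3, 4 on Rian, 2 on Mirg, 2 on Dlk1, 1 on Wdr25 and 7 on Ppp2r5c. Rtl1, Dio3 and Begain had no probe set under a single symbol, and their transcripts were not analysed here.

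The arrays compared 2 groups of 2 samples of the mouse line E14, embryonic stem cells grown in medium with 15% serum and LIF. The control RNAi cells are labelled as a control knockdown, with no description of the hairpin used, and the Npac RNAi cells received a short hairpin RNA against Npac, now named Glyr1, a nucleosome-binding protein of transcribed chromatin. Both groups were harvested after 3 days under puromycin, which began 24 hours after transfection. The labels do not say whether the 2 arrays of a group come from separate cultures, so the p-values measure the spread between these arrays, which may be technical. Glyr1 itself read 11.30 and 11.32 in control RNAi and 10.23 and 10.20 in Npac RNAi, which left 46.9% of the control level (-1.09, SE 0.0554, limma adjusted p = 0.00171). All levels are the deposited log2 values, each difference is Npac RNAi minus control RNAi on that scale, and a probe set was called when limma's Benjamini-Hochberg adjusted p over all probe sets was under 0.05. An alternative, spike-in scaling, levels the arrays on 24 probe sets for added bacterial poly-A transcripts, which read 0.54 higher in Npac RNAi, and so shifts every difference by -0.54.

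Imprinting in this domain is set by a control region between Dlk1 and Meg3 that carries DNA methylation on the paternal copy. On the unmethylated maternal copy, transcription runs through Meg3, Rian and Mirg, which are the hosts of large clusters of small nucleolar RNAs and microRNAs, while Dlk1, Rtl1 and Dio3 stay silent there. In pluripotent stem cell lines the maternal RNAs are known to be lost when the domain gains methylation, and their presence is used as a mark of lines with full developmental potential.

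Transcripts of all 3 maternal noncoding RNAs were lower in Npac RNAi. Of the 17 probe sets of Meg3, Rian and Mirg, 15 were called lower in Npac RNAi and none was called higher (limma, adjusted p under 0.05; at an unadjusted p under 0.05 also 15 and 0). Over all probe sets 14% were called lower and 14.2% higher, or 28.2% either way. The largest fall was that of Rian, down to between 17.1% and 41.4% of the control level in its 4 probe sets, while the called probe sets of Meg3 and Mirg kept between 47.7% and 73.4%. The fall was called and at least 1.5-fold in 13 of the 17, against 1.95% of all probe sets, and in 16 of the 17 the arrays of both groups did not overlap, against 41.1%. Of the 10 probe sets of Dlk1, Wdr25 and Ppp2r5c none was called lower (limma, 0 also at an unadjusted p under 0.05 and 1 or more only with spike-in scaling), 3 were called higher, all of Ppp2r5c, and 7 had no call. Only 1434205_at of these 3 was at least 1.5-fold, against 5.85% of all probe sets, and 6 of the 10 were higher without overlap, against 28.0%. The median difference was -0.74 over the noncoding RNA probe sets, 0.16 over the coding and flanking ones and -0.06 over all probe sets. Without control array 2 the number of member probe sets called lower was 9, on a background of 1.04%, against 12 to 14 without another array. With no moderation of variances it was 6, on a background of 1.76%.

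**Figure D1:**
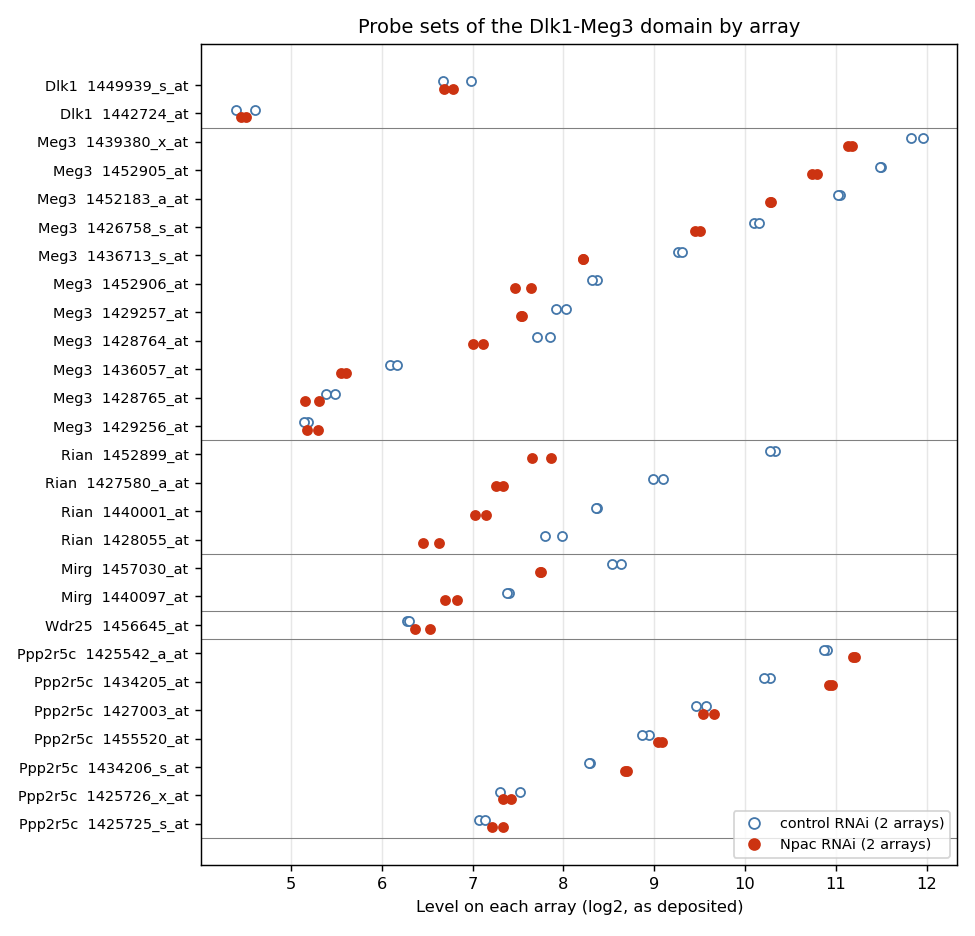
The log2 level (horizontal axis) of each of the 27 probe sets on every array, with open circles for the 2 control RNAi arrays and filled circles for the 2 Npac RNAi arrays. All 4 Rian probe sets and both of Mirg have both filled circles to the left of the open ones, while those of Dlk1 lie among each other.

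Markers of cell state moved with the groups. Each was read by its brightest probe set, and over all genes read so 19.3% were called higher and 14.6% lower. Of 13 embryonic stem cell markers 10 were lower and 3 without a call (median -0.45), Pou5f1 by 1.17 (SE 0.058) and Nanog by 0.48 (SE 0.0609, not called if any 1 array was left out, highest adjusted p 0.0686 over 17 settings), while both stayed at 11.88 or above on every array. Of 15 trophectoderm markers 12 were higher and 3 without a call (median 1.84). Their summed level, in unlogged array units, went from 11500 to 11600 in control RNAi to 49100 to 49700 in Npac RNAi. Krt8 and Krt18 weighed most in that sum, with mean levels of 12.07 and 11.96 in control RNAi and 14.13 and 14.10 in Npac RNAi. Of 15 primitive endoderm markers 6 were higher and 2 lower. Fibroblast markers, listed since fibroblasts express Meg3 and Dlk1, gave 4 higher, 3 lower and 13 without a call of 20. Those higher were the smooth muscle actin gene Acta2 by 1.23 (SE 0.119), Col5a1 by 1.18 (SE 0.0747), Pdgfrb by 0.79 (SE 0.0787) and S100a4 by 0.36 (SE 0.0734, but -0.18 with spike-in scaling). Acta2, Col5a1 and Pdgfrb each had 1 or 2 further probe sets without a call, down to -0.10, 0.21 and 0.25. Those lower were Pdgfra (-0.49, SE 0.0892), the fibronectin gene Fn1 (-0.40, SE 0.0558) and Prrx1 (-0.29, SE 0.0552). For Pdgfra 2 of 3 probe sets were called lower and for Prrx1 1 of 6, and the others reached up to 0.0 and 0.04. Both probe sets of Fn1 were called lower. Pdgfrb was not called without control array 1 or 2, and S100a4, Pdgfra, Fn1 and Prrx1 were not called if any 1 array was left out (highest adjusted p 0.398 over 16 or 17 settings). The summed level of the list was 8140 to 8380 in control RNAi and 8180 to 8280 in Npac RNAi, but 65.0% to 76.6% of it came from Fn1 and Vim. Over the other 18 genes the sum was 1910 to 2110 in control RNAi and 2860 to 2890 in Npac RNAi. Col5a1, Acta2 and Pdgfrb were the brightest of these 18 in Npac RNAi, at means of 9.86, 8.99 and 8.47. In control RNAi their means were 8.67, 7.76 and 7.67, so the change of this sum rests largely on them. The collagens Col1a1 (5.59 in control RNAi and 5.54 in Npac RNAi) and Col1a2 (6.79 and 6.90, and below 0 in difference, at -0.43, with spike-in scaling) had no call. The part of these shifts in the fall of the noncoding RNAs was not tested, and in these bulk samples fewer cells with a transcript and less of it per cell cannot be told apart.

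The sequences upstream of these genes are shown because 3 neighbouring noncoding RNAs fell together and each has its own annotated start. RefSeq windows of 300 bases (assembly GRCm38.p6, 250 bases before to 50 after an annotated start) were found for 7 of the 9 genes, Rtl1 and Wdr25 being the others, and for Meg3 the upstream one of 2 windows is shown. They are written 5′ to 3′ on the strand of the gene, in lower case. In the windows of Meg3, Rian and Dlk1 the capitals mark matches, on either strand, to 4 motifs. TGCCGC is the hexamer that the imprint-protecting factor ZFP57 binds when it is methylated. The cAMP response element has the letters TGACGTCA. A TATA box has the letters TATAAA. The factor YY1 binds the core ATGGCG. In the window of Mirg they mark mature microRNAs.
Meg3, chr12:109540746-109541045, plus strand: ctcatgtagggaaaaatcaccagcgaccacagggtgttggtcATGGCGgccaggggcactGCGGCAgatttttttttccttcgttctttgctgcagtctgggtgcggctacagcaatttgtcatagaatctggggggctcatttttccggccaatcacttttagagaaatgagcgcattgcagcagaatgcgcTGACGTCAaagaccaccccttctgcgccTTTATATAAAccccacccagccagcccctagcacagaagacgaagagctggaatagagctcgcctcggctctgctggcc
Rian, chr12:109603695-109603994, plus strand: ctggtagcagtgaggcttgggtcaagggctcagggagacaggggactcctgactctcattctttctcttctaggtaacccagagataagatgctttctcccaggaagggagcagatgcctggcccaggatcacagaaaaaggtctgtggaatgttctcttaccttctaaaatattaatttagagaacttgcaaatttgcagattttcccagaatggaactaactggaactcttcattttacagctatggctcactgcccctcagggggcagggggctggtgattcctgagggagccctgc
Mirg, chr12:109734731-109735030, plus strand: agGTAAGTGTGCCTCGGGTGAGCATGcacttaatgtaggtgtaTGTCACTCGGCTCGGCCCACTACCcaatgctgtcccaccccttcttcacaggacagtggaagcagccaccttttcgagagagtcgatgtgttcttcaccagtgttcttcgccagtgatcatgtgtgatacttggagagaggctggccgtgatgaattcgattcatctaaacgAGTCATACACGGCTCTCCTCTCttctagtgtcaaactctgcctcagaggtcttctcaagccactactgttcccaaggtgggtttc
Dlk1, chr12:109452573-109452872, plus strand: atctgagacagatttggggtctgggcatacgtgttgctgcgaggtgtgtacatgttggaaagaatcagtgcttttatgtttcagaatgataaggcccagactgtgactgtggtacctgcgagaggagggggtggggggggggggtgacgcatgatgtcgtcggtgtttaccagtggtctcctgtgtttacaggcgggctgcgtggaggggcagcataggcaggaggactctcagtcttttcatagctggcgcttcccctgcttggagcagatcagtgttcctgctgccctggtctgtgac
The Meg3 window held 1 match to TGCCGC (on the opposite strand, from base 61 of the window), 1 to ATGGCG (from base 43), 1 to TGACGTCA (from base 194) and 2 overlapping ones to TATAAA, with 1 on each strand. Over all 32851 windows of this length, 11.6% held TGCCGC, 8.93% ATGGCG, 1.79% TGACGTCA and 13.6% TATAAA. The windows of Rian, Mirg and Dlk1 held none of the 4 motifs, and 1 of the 2 windows of Ppp2r5c held 3 matches to TGCCGC. Meg3 had 13 CG dinucleotides in its window, Mirg 10 and Dlk1 9, against a median of 7, and Rian had 0. The second Meg3 window, chr12:109545148-109545447, had 1 CG dinucleotide and none of the 4 motifs, so the counts for Meg3 hold for the upstream start alone. The Mirg window contains 3 mature microRNA sequences, mmu-miR-668-5p, mmu-miR-668-3p and mmu-miR-485-3p, so the annotated start of Mirg lies inside a microRNA cluster. A match is a description of letters and not a site in use, and no binding or methylation was measured here.

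The microRNAs made from these hosts were not measured by the arrays. RefSeq places 1 hairpin within the span of Meg3, 3 within Rian, 28 between Rian and Mirg and 10 within Mirg. Some mature forms within the hosts that fell are printed with the seed, bases 2 to 8, in capitals, to show what the hosts encode.
Meg3, mmu-miR-770-5p: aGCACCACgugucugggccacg
Rian, mmu-miR-341-3p: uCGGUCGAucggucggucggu
Rian, mmu-miR-370-3p: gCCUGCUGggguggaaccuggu
Mirg, mmu-miR-453: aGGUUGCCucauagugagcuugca
Mirg, mmu-miR-496a-5p: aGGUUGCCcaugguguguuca
Mirg, mmu-miR-154-5p: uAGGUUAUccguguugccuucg
Mirg, mmu-miR-369-3p: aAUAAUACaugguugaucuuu
Mirg, mmu-miR-410-3p: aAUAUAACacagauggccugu
Among the 27 mature forms within the 3 hosts, mmu-miR-453 and mmu-miR-496a-5p were the only pair with the same seed, GGUUGCC. The level of a host transcript does not give the level of its microRNAs.

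Meg3, known for its maternal expression and for growth-restraining activity in cultured cells, opens the noncoding row. Its brightest probe set, 1439380_x_at, read 11.83 and 11.96 on the control arrays and 11.18 and 11.13 on the Npac RNAi arrays. The groups did not overlap, and the difference was -0.74 (SE 0.0703, limma adjusted p = 0.00539), which left 59.9% of the control level. The next, 1452905_at, read 11.50 and 11.49 against 10.74 and 10.79, a difference of -0.73 (SE 0.0575, limma adjusted p = 0.00372). Probe set 1452183_a_at read 11.04 and 11.02 against 10.27 and 10.29 and differed by -0.75 (SE 0.056, limma adjusted p = 0.00335). These 3 readings of the same gene thus fell by nearly the same step.

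The other Meg3 probe sets varied more. The largest Meg3 difference was that of 1436713_s_at, which read 9.26 and 9.31 on the control arrays and 8.22 on each Npac RNAi array, a difference of -1.07 (SE 0.0568, limma adjusted p = 0.00184). The smallest called difference was that of 1429257_at, at 7.92 and 8.03 against 7.53 and 7.54 (-0.45, SE 0.0651, limma adjusted p = 0.0134), and it was not called if any 1 array was left out (highest adjusted p 0.0878 over 15 settings). The remaining called probe sets, 1426758_s_at, 1452906_at, 1428764_at and 1436057_at, differed by -0.65, -0.79, -0.72 and -0.55, each with groups that did not overlap. Without control array 2 none of these 4 was called, without control array 1 1452906_at was not, and without Npac RNAi array 2 1428764_at and 1436057_at were not (highest adjusted p 0.0886 over 14 or 15 settings). The 2 Meg3 probe sets without a call were the dimmest of the 11. Probe set 1428765_at read 5.39 and 5.48 against 5.15 and 5.31 (-0.20, 95% interval -0.42 to 0.02), and 1429256_at read 5.19 and 5.14 against 5.30 and 5.18 (0.07, 95% interval -0.11 to 0.25). Both lay below the median level of all probe sets, 6.44, as did the called 1436057_at at a mean of 5.85.

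Several of these readings are not independent. The 11 Meg3 probe sets were designed from 7 source sequences, and 3 of them, 1428764_at, 1428765_at and 1452905_at, from the same sequence. Their differences were -0.72, -0.20 and -0.73. The suffixes _s_at and _x_at mark probe sets whose probes can match transcripts of more than a single gene, and _a_at those that match several transcripts of the same gene.

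Rian, an RNA that carries a long array of C/D box small nucleolar RNAs in its introns, lies next to Meg3. Probe set 1452899_at read 10.33 and 10.27 on the control arrays and 7.86 and 7.65 on the Npac RNAi arrays. The groups lay far apart, and the difference of -2.55 (SE 0.0908, limma adjusted p = 0.0011), a 5.86-fold fall, was the lowest of all 45037 probe sets. Probe set 1427580_a_at read 9.10 and 8.99 against 7.34 and 7.26, a 3.35-fold fall (-1.74, SE 0.0703, limma adjusted p = 0.00124), the 10th lowest difference on the array. Probe set 1428055_at, at 7.80 and 7.98 against 6.45 and 6.63, fell 2.54-fold (-1.35, SE 0.101). Probe set 1440001_at, at 8.37 and 8.36 against 7.03 and 7.15, fell 2.42-fold (-1.27, SE 0.0663). All 4 were called without any 1 array and were designed from 4 different source sequences.

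The readings of Rian agreed in direction but not in size. The difference between the probe sets 1452899_at and 1440001_at was 1.96 and 1.92 within the control arrays and 0.82 and 0.50 within the Npac RNAi arrays, so it shrank by 1.28 (exact permutation p = 0.333, the smallest that 2 against 2 arrays can give). A mean over the probe sets of Rian gave -1.73, a fall of smaller size than that of its brightest probe set, and still the lowest of the domain's genes. Which part of the transcript each probe set reads is not given in the sources used here.

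Mirg, the host of the distal microRNA cluster, fell by about as much as Meg3. Probe set 1457030_at read 8.63 and 8.53 on the control arrays and 7.74 and 7.75 on the Npac RNAi arrays (-0.84, SE 0.0643, limma adjusted p = 0.00354). Probe set 1440097_at read 7.40 and 7.38 against 6.83 and 6.70 (-0.63, SE 0.0689, limma adjusted p = 0.00729), and it was not called if control array 1 or 2 was left out (highest adjusted p 0.0778 over 15 settings). The groups did not overlap in either probe set.

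Within each array, Rian was set against its neighbours. The brightest probe set of Rian stood relative to that of Meg3 at -1.50 and -1.68 on the control arrays and at -3.32 and -3.49 on the Npac RNAi arrays. This is a further drop of Rian against Meg3, with a change of -1.81 (two-sided exact permutation p = 0.333, the smallest p this design allows). It was -1.13 when the probe sets of each gene were averaged. Against Mirg, Rian changed by -1.71 (exact permutation p = 0.333). Mirg relative to Meg3 read -3.20 and -3.43 in control RNAi and -3.44 and -3.38 in Npac RNAi, with groups that overlapped and a change of -0.10 (exact permutation p = 0.667).

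**Figure D2:**
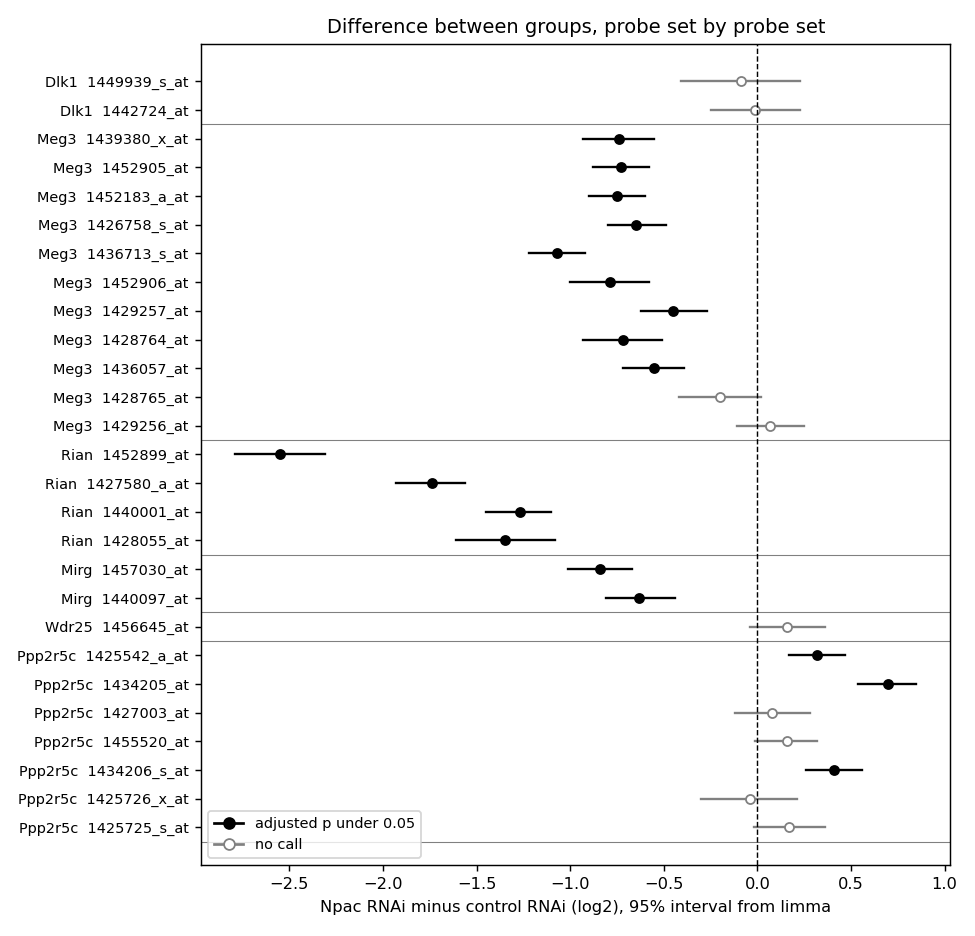
The difference between groups (Npac RNAi minus control RNAi, log2, horizontal axis) for each of the 27 probe sets, with limma's 95% interval. Filled points passed the test; 15 lie to the left of 0 and belong to Meg3, Rian and Mirg, and the 3 to the right of 0 belong to Ppp2r5c, of which 2 change sign with spike-in scaling.

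Dlk1, a membrane protein with EGF-like repeats that acts as a non-canonical Notch ligand and restrains adipocyte formation, was the measured coding gene of the paternal copy. Probe set 1449939_s_at read 6.67 and 6.98 on the control arrays and 6.68 and 6.78 on the Npac RNAi arrays, and the groups overlapped. The difference was -0.09 (95% interval -0.41 to 0.23, limma adjusted p = 0.584), so a rise or fall of up to those bounds is not shown to be absent. Probe set 1442724_at read 4.39 and 4.60 against 4.45 and 4.51 (-0.01, 95% interval -0.25 to 0.23, limma adjusted p = 0.926). It was dim, at a mean brighter than 19.4% of probe sets. Both were below 0 and called lower with spike-in scaling (-0.63 and -0.55).

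Wdr25, a WD repeat gene ahead of Dlk1 in chromosome order, read 6.28 and 6.30 on the control arrays and 6.37 and 6.53 on the Npac RNAi arrays. The groups did not overlap, but the difference of 0.16 (95% interval -0.04 to 0.36) did not pass the test (limma adjusted p = 0.177).

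Ppp2r5c encodes a regulatory B56 subunit of the phosphatase PP2A and lies beyond Dio3. Probe set 1434205_at read 10.27 and 10.21 on the control arrays and 10.96 and 10.92 on the Npac RNAi arrays, a difference of 0.70 (SE 0.06, limma adjusted p = 0.00444), which was 0.16 and without a call with spike-in scaling. Probe set 1434206_s_at, from the same source sequence, read 8.29 and 8.28 against 8.70 and 8.68 (0.41, SE 0.0551, limma adjusted p = 0.0113). The brightest, 1425542_a_at, read 10.90 and 10.87 against 11.21 and 11.19 (0.32, SE 0.0567, limma adjusted p = 0.0213). Neither of the latter pair was called if any 1 array was left out (highest adjusted p 0.249 and 0.109 over 15 and 17 settings), and their sign turned with spike-in scaling (-0.13 and -0.22). The other 4 probe sets of the gene had no call and ran from -0.04 to 0.17, so the 7 readings of Ppp2r5c did not agree on a rise.

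The fall was set against the genes on either side in chromosome order. RefSeq lists 103 genes from Dlk1 to Dio3, of which 61 are microRNA and 19 small nucleolar RNA genes, and 6 of the 103 had a probe set with a single symbol. Beside Dlk1, Meg3, Rian and Mirg these were the noncoding RNAs Dio3os, antisense to Dio3 (-0.13, SE 0.0931, limma adjusted p = 0.354), and 3110009F21Rik (-0.13, SE 0.156, limma adjusted p = 0.556), neither of them called. Their mean levels were 6.2 and 3.73, both below the median of all probe sets, 6.44. These dim readings do not show where the fall ends. Along the wider stretch from Bcl11b to Cdc42bpb, 34 other genes were measured, and by the brightest probe set of each, 7 were called higher and 2 lower, with a median of -0.02. On all genes 19.3% were called higher and 14.6% lower. Among these 34 the difference ran from -0.74 for Amn (SE 0.0927, limma adjusted p = 0.00954), an endocytic receptor subunit gene, to 0.83 for Wdr20 (SE 0.078, limma adjusted p = 0.00525), a cofactor gene of deubiquitinases. The other gene called lower, Hhipl1, was dim and differed by -0.25 (SE 0.0637, limma adjusted p = 0.0476), and its call was lost in 12 of 15 other settings, among them every array left out and the quantile, median and cyclic loess normalizations (highest adjusted p 0.183). Amn was not called if control array 1 or 2 was left out (highest adjusted p 0.108 over 17 settings), and the other probe sets of Wdr20 had no call, with a lowest value of -0.24. Wdr20 was also not called without control array 2 (highest adjusted p 0.0867 over 17 settings). Yy1, which encodes the zinc finger factor whose core motif was searched above, rose by 0.25 on its brightest probe set (SE 0.0617, limma adjusted p = 0.0452), and was not called if any 1 array was left out (highest adjusted p 0.172 over 17 settings) and turned by spike-in scaling (-0.29). The 4 probe sets of Yy1 ran from -0.04 to 0.66, with 2 called higher.

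**Figure D3:**
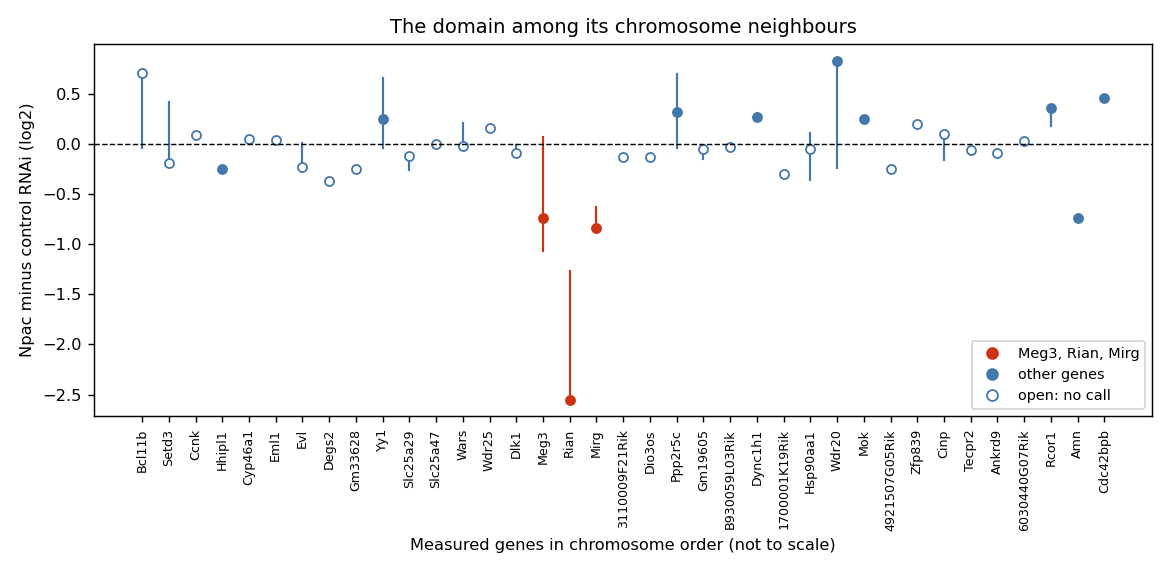
The difference between groups (log2, vertical axis) for the 37 measured genes in chromosome order, with a point for the brightest probe set of each gene, filled where it was called, and a line over the range of all its probe sets. Meg3, Rian and Mirg stand next to each other and below 0, and genes on both sides lie between -0.74 and 0.83; spike-in scaling moves every point by -0.54 and so turns called rises below that size.

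Factors listed for the imprint of the domain changed in both directions. Of 26 genes listed for imprint maintenance, 11 were lower, 7 higher and 8 without a call (median -0.17, against -0.04 over all genes). Over all genes 14.6% were called lower and 19.3% higher. The counts include Tet genes, described below, and so are not counts of imprint-keeping factors alone. Zfp57, which binds methylated imprint control regions, fell from 8.20 and 8.24 to 7.83 and 7.77 (-0.42, SE 0.0602, limma adjusted p = 0.0129), and was not called if any 1 array was left out (highest adjusted p 0.0834 over 17 settings). Trim28, its co-repressor, fell by 0.47 (SE 0.0567, limma adjusted p = 0.00892), with both of its probe sets called lower, but not called if either control array or Npac RNAi array 2 was left out (highest adjusted p 0.066 over 17 settings). Tet1 and Tet2, which oxidise methylated cytosine, fell by 0.79 (SE 0.0635) and 0.35 (SE 0.0613), and all their 6 probe sets were called lower at differences from -1.20 to -0.31. Tet2 was not called if any 1 array was left out (highest adjusted p 0.0916 over 17 settings).

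DNA methyltransferase genes did not move together. Dnmt1, the maintenance enzyme, was -0.07 (SE 0.066, limma adjusted p = 0.439), with no call on any of its 3 probe sets. Uhrf1, also listed for imprint maintenance, fell by 0.57 on its brightest probe set (SE 0.0655, limma adjusted p = 0.00791). That call was not followed over the other settings. Dnmt3b and the cofactor Dnmt3l rose by 0.43 (SE 0.0561, limma adjusted p = 0.0107) and 0.41 (SE 0.0584, limma adjusted p = 0.0129), but read -0.11 and -0.13 with spike-in scaling. Neither was called if any 1 array was left out (highest adjusted p 0.3 and 0.256 over 17 settings). For Dnmt3a, a de novo enzyme known to act on this domain, the brightest probe set fell by 0.56 (SE 0.0554, limma adjusted p = 0.00575), but its 5 probe sets ran from -0.72 to 0.72 with 2 called lower and 1 higher, and their mean gave -0.05. It was also not called without control array 2 (highest adjusted p 0.533 over 17 settings). Dppa3, which guards DNA methylation in the early embryo, rose by 0.65 (SE 0.0633, limma adjusted p = 0.00567) and was 0.11 and not called with spike-in scaling. Aff3, known to bind the control region of the domain, rose by 0.88 (SE 0.083, limma adjusted p = 0.00525) on 1 of its 2 probe sets, while the other read -0.24 without a call.

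Of 12 listed genes of Polycomb repressive complex 2, which Meg3 can bind, 3 were higher, 1 lower and 8 without a call (median -0.15), a share of called genes near the 33.9% of all genes called either way. The catalytic subunit gene Ezh2 was -0.23 (SE 0.0727, limma adjusted p = 0.0769) and was called lower in 3 of 17 other settings. Among 14 measured genes of small RNA processing 4 were higher, 1 lower and 9 without a call (median 0.06), also a share near 33.9%.

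Imprinted genes outside the domain included rises among those listed for either parental copy. The lists follow known parental expression, and the arrays did not tell the parental copies apart. Of 25 maternally expressed genes outside the domain 9 were higher and 5 lower (median 0.16), and of 26 paternally expressed ones 11 were higher and 1 lower (median 0.20). The shares over all genes were 19.3% higher and 14.6% lower. Ascl2, a maternally expressed transcription factor gene of the trophoblast that is also among the trophectoderm markers, rose from 7.66 and 7.75 to 10.38 and 10.40 (2.69, SE 0.0628, limma adjusted p = 0.0011). Cdkn1c, a maternally expressed cell cycle inhibitor gene, rose from 8.66 and 8.78 to 11.03 and 11.01 (2.30, SE 0.0679, limma adjusted p = 0.0011). The paternally expressed growth factor gene Igf2 rose by 2.72 (SE 0.0568) and Peg3, a zinc finger gene, by 1.76 (SE 0.0559), although the 5 probe sets of Peg3 reached down to -0.16. Asb4 was the maternally expressed gene of lowest difference (-0.56, SE 0.0928, limma adjusted p = 0.018), and it was not called if any 1 array was left out (highest adjusted p 0.139 over 16 settings). The lower paternally expressed gene was Plagl1, a zinc finger regulator of imprinted growth genes (-1.10, SE 0.0749, limma adjusted p = 0.00279), called on 1 of its 3 probe sets, with a mean of -0.66 over them. Rian therefore differed by more, at -2.55, than any of these 51 genes that was lower.

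**Figure D4:**
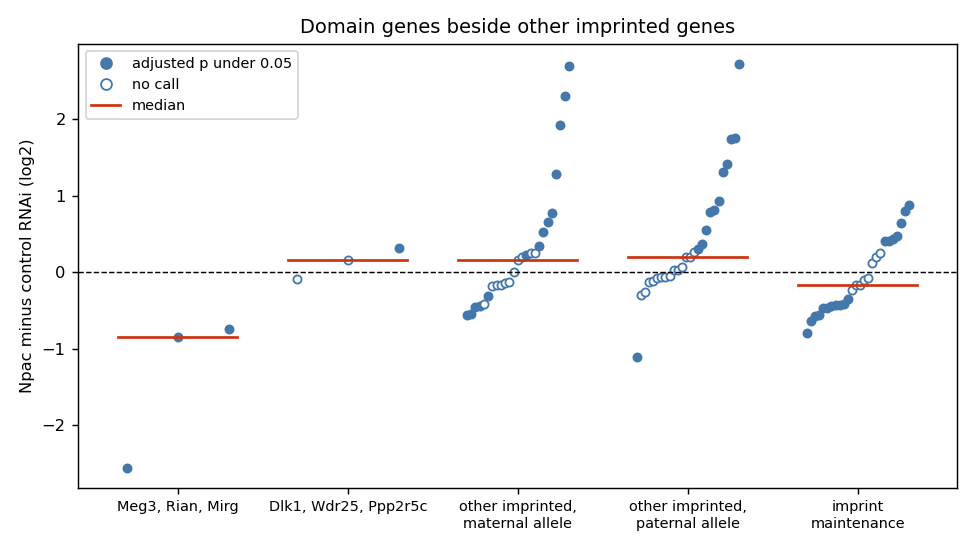
The difference between groups (log2, vertical axis) of genes by their brightest probe set, filled where called, with the median of each set as a line. Meg3, Rian and Mirg lie from -2.55 to -0.74, while other imprinted genes, listed by known parental expression, run from -1.10 to 2.72. Spike-in scaling lowers every point by 0.54.

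Genes that work with the proteins of the domain were counted in the same way, beside shares over all genes of 19.3% higher and 14.6% lower. Of 34 Notch pathway genes, listed because of Dlk1, 8 were higher, 8 lower and 18 without a call (median -0.07). The close relative Dlk2 rose by 1.04 (SE 0.0887, limma adjusted p = 0.00435) and the Notch coactivator Maml1 by 0.73 (SE 0.0571), while the Notch targets Nrarp and Hey1 each fell by 0.60 (SE 0.0596 and 0.0872). The call on Hey1 was lost without either control array or Npac array 2, and that on Nrarp without either control array (highest adjusted p 0.121 and 0.0566 over 17 settings); Maml1 lost its call with spike-in scaling (0.19). Of the 3 probe sets of Maml1 2 were called higher and the other read -0.22 without a call, and their mean gave 0.29, while the second of Nrarp read -0.26 without a call. Of 20 other PP2A subunit genes 8 were higher, 2 lower and 10 without a call (median 0.13). Among them Ppp2r3a rose by 0.93 (SE 0.0812) and Ppp2r5e, of the same B56 family as Ppp2r5c, fell by 0.58 on its brightest probe set (SE 0.0547), a call lost without control array 2 (highest adjusted p 0.054 over 17 settings). Of the 5 probe sets of Ppp2r5e 3 had no call, up to 0.04, and their mean gave -0.25. The 3 probe sets of Ppp2r3a ran down to 0.11, with 2 called higher. Of 15 thyroid hormone genes, listed because of Dio3, 2 were higher and 3 lower (median -0.13). Of 9 retrotransposon-derived genes akin to Rtl1 4 were higher and 5 without a call (median 0.25), and Peg10, needed for placenta formation, rose by 1.41 (SE 0.0658, limma adjusted p = 0.0015). Their highest difference was that of Ldoc1, 1.76 (SE 0.084).

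Of 23 long noncoding RNAs and small RNA hosts measured outside the domain, 12 were lower, 5 higher and 6 without a call (median -0.40). Over all genes 14.6% were lower and 19.3% higher. Snhg3, a small nucleolar RNA host, fell by 1.52 (SE 0.0817, limma adjusted p = 0.00189), and Neat1, the RNA of nuclear paraspeckles, rose by 1.03 on its brightest probe set (SE 0.055, limma adjusted p = 0.00188) and was 0.04 on the other. The highest difference of this list was that of Ftx, 1.46 (SE 0.101).

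The genes nearest to Rian by Euclidean distance over the 4 arrays, each array taken relative to the control mean and genes at or above the median level only, were Stmn2 (distance 0.767), Tcl1 (0.94), Pramel7 (1.25), Pramel6 (1.26) and Snhg3 (1.49). This distance mainly follows the size of the difference. For Rian, the lowest of all, it therefore picks other large falls, here from -2.03 for Stmn2 to -1.52 for Snhg3. For Meg3 they were Rdm1 (0.0301), Myo1f (0.0588), 2210409E12Rik (0.0702), Dhx36 (0.0712) and Apcdd1 (0.0739). The brightest probe set of Meg3 had the 399th lowest difference of the array, and that of Rian the lowest.

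Spike-in scaling moved every member by the same step. On the 4 arrays the deposited medians lay between 6.41 and 6.44, and the replicate arrays correlated at 0.998 across probe sets. With spike-in scaling 24 of the 27 probe sets were called lower and none higher, on a background of 84.9% of all probe sets called lower, so the share of members called lower then lay near the background. The brightest probe set of Rian was then -3.09, that of Mirg -1.38 and that of Meg3 -1.28. The change of Rian relative to Meg3 does not depend on such a shift.

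**Figure D5:**
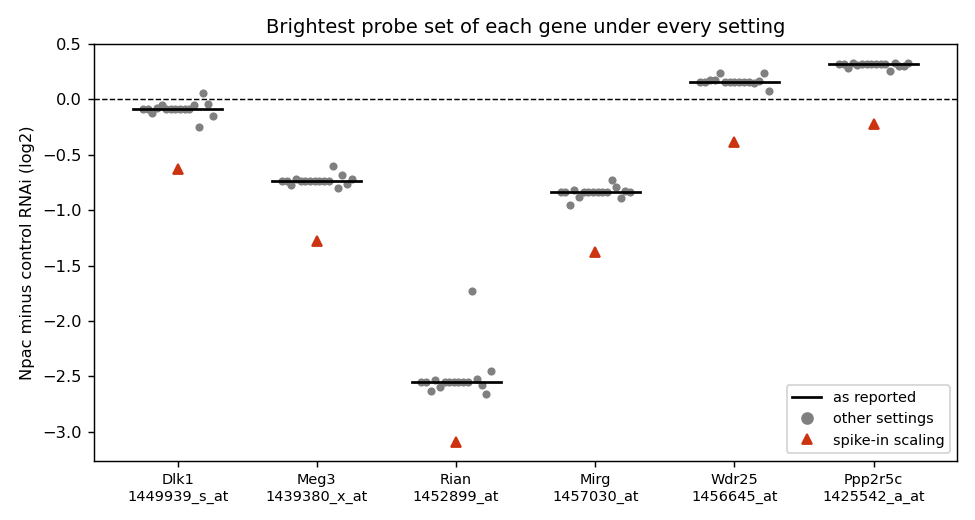
The difference between groups (log2, vertical axis) of the brightest probe set of each measured gene, as reported (line), under 15 or 16 other settings (grey points) and with spike-in scaling (triangles). For Rian the point at -1.73 is the mean of its probe sets; Wdr25 and Ppp2r5c lie below 0 with spike-in scaling only, and the Dlk1 points lie on both sides of 0.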

How the data were processed

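RNA of 4 samples was read on single-channel Affymetrix arrays, 2 per group, from biotin-labelled complementary RNA made of 5 µg total RNA. The authors deposited log2 values, 1 per probe set and array, made with RMA (a method that usually corrects background, equalises arrays and summarises probes), per the submitters' processing notes; neither its version nor the log base is stated in what was read here, and log2 was inferred from values of 2.78 to 15.05. Because RMA makes the arrays' distributions alike, a shift of all transcripts together cannot be seen in these values. Groups and replicate numbers came from the sample titles.

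Of 45101 probe sets, 64 manufacturer's controls were left out; 34945 carried 1 symbol, 932 several and 9160 none. Symbols other than those choosing the members were updated through Entrez identifiers (34741 matched; RefSeq, GRCm38.p6, used for names and order). All 45037 were fitted with limma 3.58.1 in R 4.3.3 (lmFit, eBayes, group as the only term; 2 residual and 2.56 prior degrees of freedom), with no filter on dim probe sets. The arrays' number limits the precision, and the procedure was tested on simulated data. Listed genes were read by their probe set of highest mean, Meg3 being left out of its imprinted list. Named genes are all member probe sets, Glyr1, up to 2 higher and 2 lower called genes of largest difference per list, a fixed set of imprint factors and markers, and the 5 genes nearest to Rian and Meg3. Which of the listed genes so selected are described was decided after their values were seen. So was the naming of Yy1, Dio3os, 3110009F21Rik, Uhrf1, Pdgfrb, S100a4, Prrx1, Vim, Krt8 and Krt18 outside the rule, and the sum without Fn1 and Vim. Members and lists were chosen with earlier results of these data known. Alternatives are given in the closing section.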

Additional observations from a re-analysis of the deposited data

Results flagged for a closer look

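Probe sets for the poly-A controls, which are bacterial sequences spiked in, lie outside the gene comparison and read higher on the Npac RNAi arrays. Their 24 probe sets had a mean of 8.66 in control RNAi and 9.20 in Npac RNAi, a log2 difference of 0.54, with 24 of 24 higher. They are repeated readings of a few transcripts and not independent ones.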

How the results depend on the processing

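With 2 arrays a group, calls rest on limma's pooled variances. The called probe sets of Rian, Meg3 and Mirg were below 0 in every setting run. Leaving out 1 array gave 9 to 14 member probe sets lower, 1 higher, and 2060 to 4237 of all probe sets called (12705 with all arrays); the arm with a single array borrows the spread of the other. An adjusted p under 0.01 left 1 member higher and 3737 calls in all, a minimum of 1.5-fold 1 and 3511, and no moderation 6 members lower, 1 higher and 1893 in all. By gene, 3 of 6 were lower and 1 higher both with 1 probe set per gene (7425 calls in all) and with the mean of probe sets (6779), since genes and not probe sets are counted. At an unadjusted p under 0.05, no moderation gave 3 members higher. Spike-in scaling gave 24 members lower and 0 higher (0 also at an unadjusted p under 0.05 with limma). Of its 39746 calls in all, 3.79% were higher, against 50.2% as deposited. It turned Meg3 1429256_at (-0.47), Wdr25 (-0.38), Ppp2r5c 1425542_a_at (-0.22), 1427003_at (-0.46), 1455520_at (-0.38), 1434206_s_at (-0.13) and 1425725_s_at (-0.37), Dnmt3b (-0.11), Dnmt3l (-0.13), Yy1 (-0.29), S100a4 (-0.18) and Col1a2 (-0.43), by its constant shift. Quantile, median and cyclic loess normalization, the trend and robust options and the 25th percentile filter gave 15 members lower and 3 higher. Their backgrounds differed: cyclic loess called 10.9% of all probe sets lower, and the 25th percentile filter 20.1% of those kept. The median filter gave 14 members lower and 4 higher of 22 kept. Its background was 25.3% lower and 31.6% higher, so the share of members called higher lay below the background.

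Same-numbered arrays did not deviate together (r = -0.14 over probe sets), so the replicate number is only a name. With it as a block, 14 members were lower and 1 higher, and 4887 probe sets were called. The crossed pairing, added after the data were seen, gave 15, 3 and 9500.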
